A study of Mus musculus with 6 samples.

Results

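The genes described here are 8 that are best known from the embryo and from tumours: the chromatin proteins Hmga1 and Hmga2, the RNA-binding proteins Lin28a and Lin28b, the mRNA-binding proteins Igf2bp1, Igf2bp2 and Igf2bp3, and the fetal serum protein Afp. They were chosen by name, and all 8 have a row among the 33924 gene names of the count table. The table comes from bulk RNA sequencing of lung from FVB/NJ mice, an inbred strain. Control libraries (replicates 1, 2 and 3) are normal lung, and tumour libraries (replicates 1, 2 and 4) are lung tumours induced by urethane, a chemical carcinogen given at 1 g per kg into the peritoneum. The protocol names saline as the other treatment, and all tissue was harvested at 6 months. The labels give no age or sex, do not say how tumour was cut from the surrounding lung, and do not say that each library is a separate animal, so p-values measure only the spread between these libraries.

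HMGA proteins bind AT-rich DNA and bend it, and both are abundant in the embryo and scarce in most adult tissue. LIN28 proteins bind the precursors of the let-7 microRNAs and block their maturation, while mature let-7 in turn represses the mRNAs of LIN28, HMGA2 and IGF2BP genes. IGF2BP proteins bind mRNAs such as Igf2 and protect or localise them, and alpha-fetoprotein, the product of Afp, is the albumin of fetal serum, made by fetal liver and yolk sac and silenced after birth.

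The sequences that tie these genes together are the let-7 seed and its match in their 3′ untranslated regions. The RefSeq table (GRCm38.p6) holds 9 mature let-7 and miR-98 sequences from 11 gene copies, and all 9 share 1 seed, bases 2 to 8, shown in capitals in 2 of them. The letters searched in the mRNAs were CTACCTC, the complement of that seed, on the mRNA strand only. Of the 8 genes, 7 hold at least 1 match in the longest annotated 3′ untranslated region (GENCODE M21), and Afp holds none. Below the microRNAs, 1 match of each of the 7 genes is shown 5′ to 3′ as DNA, with the match in capitals and, where the next base is the A that lengthens it to CTACCTCA, that base as well.
mmu-let-7a-5p: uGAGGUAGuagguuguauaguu
mmu-let-7d-5p: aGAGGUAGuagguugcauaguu
Hmga1: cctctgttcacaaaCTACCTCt
Hmga2: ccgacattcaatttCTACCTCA
Lin28a: cacagcctgttgaaCTACCTCA
Lin28b: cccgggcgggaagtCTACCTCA
Igf2bp1: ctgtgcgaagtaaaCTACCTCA
Igf2bp2: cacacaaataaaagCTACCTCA
Igf2bp3: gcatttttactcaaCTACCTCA

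The number of matches differed between the genes. Hmga2, Lin28b and Igf2bp1 each hold 4, Lin28a holds 2, and Hmga1, Igf2bp2 and Igf2bp3 hold 1 each. Among all 20937 genes with an annotated 3′ untranslated region, 9.06% hold a match and 1.08% hold 2 or more. Long regions hold more: of regions within 20% of the length of the Hmga2 one (3014 bases), 15.5% hold a match and 0.134% hold as many as 4, and for Igf2bp1 (6337 bases) these shares are 33.7% and 0.355%. A match is a description of the letters, and mature let-7 was not measured in these libraries.

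The libraries held 38996532 to 62336537 counted reads, so that 3 reads are worth 0.0456 to 0.0815 CPM (read counts relative to library size, scaled by TMM) in a single library. Of 20001 genes that passed a filter on low counts, 8397 differed between tumour and control at an edgeR adjusted p under 0.05. The tissue labels were checked against marker genes of cell types: all 6 markers of alveolar type 2 cells rose, from a summed 8125 to 13387 CPM in control lung to 23690 to 55565 CPM in tumours. All markers of ciliated cells (5), club cells (4), endothelium (5), smooth muscle (4), T cells (4) and B cells (4) fell, as did 4 of 5 fibroblast markers. Markers of alveolar type 1 cells were mixed (3 of 5 lower, 1 higher), and of 5 macrophage markers 1 was lower and 4 did not pass. In bulk tissue, fewer cells of a type and less RNA per cell cannot be told apart. Tumour replicate 2 stands apart by high Xist and near absence of Y-linked transcripts, and the log2 fold change of each gene given below was also computed without it.

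Afp and Hmga2 rose in the tumours, Igf2bp1 fell to nearly no reads, and Lin28b had no read in any library. Afp rose 12.2-fold in mean CPM and Hmga2 2.55-fold, both from low levels in control lung. Hmga1, Igf2bp2 and Igf2bp3 did not pass the test, and Lin28a was too low to be tested. In numbers, 6 of the 8 genes were tested, 2 were higher and 1 was lower. The lower gene, Igf2bp1, passed the filter on low counts only through the control libraries. Over all genes tested, 42.0% were called, 18.1% as higher and 23.8% as lower, so a count of 3 in 6 is near the background. Control and tumour CPM ranges were separate for 4 of the 6 genes and for 56.0% of all genes tested.

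**Figure D1:**
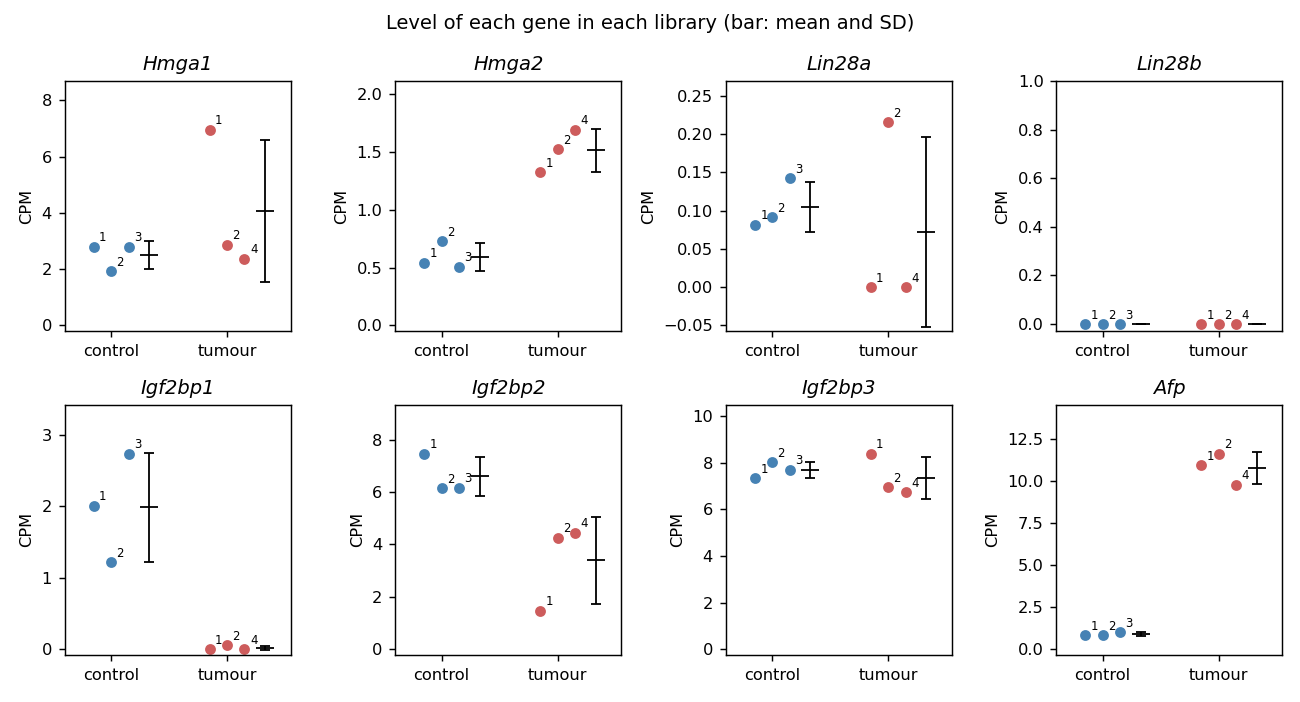
Level of each of the 8 genes in CPM (vertical axes, each on its own scale) in the 3 control libraries (blue) and 3 tumour libraries (red), labelled by replicate, with the mean and SD in black. Afp and Hmga2 are higher in all 3 tumours, Igf2bp1 is at or near 0 in them, tumour replicate 1 stands apart in Hmga1 and Igf2bp2, and Lin28b is at 0 throughout.

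Hmga2, the family member most tightly limited to the embryo, lies at chr10:119798331-119913525 on the minus strand (mm9). It had 0.543, 0.729 and 0.507 CPM in control replicates 1, 2 and 3, and 1.32, 1.53 and 1.69 CPM in tumour replicates 1, 2 and 4. Every tumour lay above every control library. The mean went from 0.593 ± 0.119 (SD, n = 3) to 1.51 ± 0.184 CPM (SD, n = 3), a log2 fold change of 1.34 ± 0.33 (SE) at an edgeR adjusted p of 0.0117. These are 93 reads in all controls and 244 in all tumours, over 6772 exon bases, and the rise did not pass a test against a 2-fold change (adjusted p = 0.224).

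Some of these reads may be shared with a neighbour. 1700006J14Rik, a transcript on the opposite strand, covers 140 exon bases of Hmga2, and reads were counted without strand and once for each name they overlap. That row rose as well, from 10, 17 and 7 reads in controls to 44, 50 and 52 in tumours, by 2.02 ± 0.42 (log2, SE; edgeR adjusted p = 0.00539). When all its reads were subtracted from Hmga2, which removes more than can be shared because most of its 2885 exon bases lie elsewhere, the log2 fold change of Hmga2 was 0.68 and no longer passed (adjusted p = 0.184). How many reads belong to each strand was not tested.

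Hmga1, the more widely expressed member, lies at chr17:27693565-27700619 on the plus strand (mm9). Controls had 2.80, 1.93 and 2.80 CPM and tumours 6.95, 2.87 and 2.36 CPM. Tumour replicate 1 was the only library far above the rest, and the groups overlapped. The means were 2.51 ± 0.502 and 4.06 ± 2.51 CPM (SD, n = 3 each), and the log2 fold change of 0.70 ± 0.44 (SE) did not pass (edgeR adjusted p = 0.238). Without tumour replicate 1 it was 0.09 (adjusted p = 0.820). Other genes hold 73.0% of the 32-base stretches in the longest Hmga1 transcript (GENCODE M21), so its read counts are uncertain. AI413582, on the opposite strand, also covers 100 exon bases of Hmga1. That row fell, from 1143 reads in all controls to 673 in all tumours, where Hmga1 had 368 and 694. How many reads the 2 rows share was not tested. Tumour replicate 1 had the highest Mki67, a marker of dividing cells, at 187 CPM against 80.9 and 77.6 CPM in the other tumours. Across the 10 proliferation markers the summed level was 83.6 to 123 CPM in controls and 211 to 470 CPM in tumours, and its part in the Hmga1 values was not tested.

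**Figure D2:**
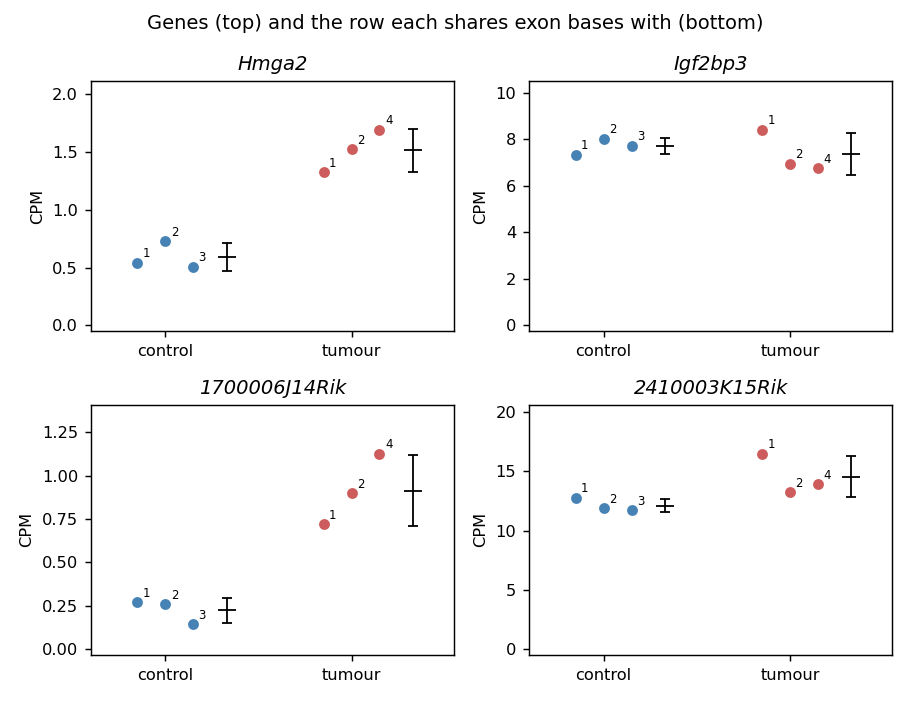
CPM per library (vertical axes) of Hmga2 and Igf2bp3 (top) and of the row each shares exon bases with (bottom: 1700006J14Rik and 2410003K15Rik), with controls in blue, tumours in red, replicate numbers beside the points, and the mean and SD in black. Hmga2 and 1700006J14Rik are both higher in all 3 tumours, and Igf2bp3 overlaps between the groups.

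Among the other HMG genes, which are the HMG-box and nucleosome-binding proteins, 3 of 9 tested rose and none fell, with a median log2 fold change of 0.26 against 0.01 over all genes tested. Hmgb3, an HMG-box protein of stem and progenitor cells, rose by 2.31 ± 0.22 (log2, SE; edgeR adjusted p = 0.000103), from 6.36 ± 1.52 to 31.5 ± 2.65 CPM (SD, n = 3 each). Hmgn1 and Hmgn3, which bind nucleosomes, rose by 0.92 and 0.87 on the log2 scale. The call of Hmgn3 was lost without control replicate 1, control replicate 3 or tumour replicate 4 (edgeR adjusted p 0.0634 to 0.0766).

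Lin28b, the paralogue often found in tumours, had 0 reads in all 6 libraries at chr10:45096426-45206201 (mm9, minus strand, 9065 exon bases). By counting error alone, 0 reads allow a level of up to 0.0197 CPM over the controls and 0.0184 CPM over the tumours, taking 3 reads over each group as the limit. Lin28a, its paralogue at chr4:133559245-133574756 (minus strand), had 3, 6 and 7 reads in controls and 0, 12 and 0 in tumours. All its tumour reads came from tumour replicate 2, and the values overlapped. It was under the filter of the test. The pooled reads give a level 1.43 times higher in controls, with an exact 95% interval of 0.635 to 3.31 that covers counting error only. The direction rests on single libraries: the ratio was 0.894 without tumour replicate 1 and 1.03 without tumour replicate 4. Without tumour replicate 2, Lin28a was at least 3.77-fold lower in tumours, against a limit of 3 reads over the group. Gm13061, on the opposite strand, covers 103 exon bases of Lin28a, and how many reads the 2 rows share was not tested.

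Of 12 genes for microRNA processing and let-7 decay, 2 rose and 1 fell, with a median log2 fold change of 0.14, and 4 were higher without tumour replicate 2. Prkra, a partner of Dicer, rose by 1.02 ± 0.15 (log2, SE; edgeR adjusted p = 0.000934). Ago1, an Argonaute protein, had a log2 fold change of -0.44 at an adjusted p of 0.0493, and this call was lost without each of the 6 libraries in turn (adjusted p 0.0507 to 0.166). Tut7, which adds uridines to let-7 precursors held by LIN28A, had 121 ± 6.13 and 96.4 ± 10.8 CPM (SD, n = 3 each) and did not pass (adjusted p = 0.0965).

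Although mature let-7 was not measured, the rows of 2 host transcripts of let-7 genes are given, chosen here after their values were seen. Hosts of other let-7 genes are not given, so these 2 do not stand for all hosts. 2610203C20Rik, a synonym of Mir100hg in RefSeq and host of Mirlet7a-2, had 472, 741 and 585 reads in controls and 38, 44 and 32 in tumours. It fell by 4.09 on the log2 scale (SE 0.24, edgeR adjusted p = 1.6e-05). 2810055G20Rik, the host of Mirlet7c-1 also called Mir99ahg, had 20.9, 13.2 and 15.8 CPM in controls and 29.1, 16.0 and 22.0 CPM in tumours, with overlap and an adjusted p of 0.223. Rows of 5 let-7 hairpins were tested too and none changed, but reads on a hairpin are not the mature microRNA.

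Among 28 other genes named as let-7 targets, 18 hold a match in the 3′ untranslated region, and 26 were tested. Of these, 11 rose and 3 fell, with a median log2 fold change of 0.32. Mycn, a MYC family transcription factor of progenitors, had 1.36, 0.912 and 1.97 CPM in controls and 85.0, 11.8 and 19.5 CPM in tumours, with the highest value in tumour replicate 1. It rose by 4.78 ± 0.79 (log2, SE; edgeR adjusted p = 0.00172), and by 3.50 without tumour replicate 1. Tgfbr1, a receptor of TGF-beta, rose from 105 ± 20.1 to 356 ± 53.7 CPM (SD, n = 3 each). Plag1, a zinc finger activator of Igf2, fell by 3.14 on the log2 scale, from 4.94 ± 0.148 to 0.557 ± 0.172 CPM (SD, n = 3 each). A list of target genes thus held changes in both directions.

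Igf2bp1, the most strictly fetal of the IGF2BP genes, lies at chr11:95818477-95867254 on the minus strand (mm9). It had 74, 80 and 135 reads in controls and 0, 3 and 0 in tumours, or 2.01, 1.22 and 2.74 CPM against 0, 0.0539 and 0 CPM. No tumour came near the lowest control. Pooled, the level was 103 times higher in controls (289 against 3 reads, exact 95% interval 35.0 to 504, counting error only), and without tumour replicate 2, where no tumour read was left, at least 68.0-fold higher. It was 64.6 times higher without tumour replicate 1 and 81.5 to 132 times higher when 1 control was left out. The edgeR adjusted p was 0.000473. AL606704.1, on the same strand, covers 92 exon bases of Igf2bp1 and had 13 reads in all controls and 0 in all tumours. Igf2bp1 passed the filter on low counts only through the control libraries, so a gene of this kind could enter the test only by being higher there.

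Its fall ran beside that of many cell types of normal lung. The summed markers went from 1546 to 2289 CPM in controls to 136 to 203 CPM in tumours for endothelium, from 1028 to 1190 CPM to 129 to 208 CPM for fibroblasts, and from 143 to 370 CPM to 23.2 to 34.2 CPM for smooth muscle. Club cell markers went from 9736 to 16379 CPM to 15.2 to 35.3 CPM and ciliated cell markers from 149 to 228 CPM to 1.5 to 3.15 CPM. Neither Igf2bp1 nor any marker of these lists was at 0 in all tumours. The part of these cell types in the fall of Igf2bp1 was not tested.

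Igf2bp2, the family member most expressed in adult tissue, lies at chr16:22059082-22163372 on the minus strand (mm9). It had 7.47, 6.15 and 6.17 CPM in controls and 1.47, 4.26 and 4.45 CPM in tumours. Every tumour was below every control, and tumour replicate 1 was the lowest. The means were 6.60 ± 0.755 and 3.39 ± 1.67 CPM (SD, n = 3 each), with a log2 fold change of -0.96 ± 0.40 (SE) that did not pass in edgeR (adjusted p = 0.0899). It did pass in DESeq2 (adjusted p = 0.0486), in limma-voom (0.0490) and with edgeR after scaling by total counts (0.0433). Without tumour replicate 1 the log2 fold change was -0.57 (edgeR adjusted p = 0.0581).

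Igf2bp3 lies at chr6:49035220-49164953 on the minus strand (mm9). Its levels were 7.33, 8.02 and 7.71 CPM in controls and 8.40, 6.95 and 6.75 CPM in tumours. The groups overlapped, at means of 7.69 ± 0.345 and 7.36 ± 0.903 CPM (SD, n = 3 each). The log2 fold change was -0.06 ± 0.20 (SE; edgeR adjusted p = 0.825). However, 35.2% of its exon bases lie inside exons of 2410003K15Rik on the opposite strand, named Malsu1 in newer annotation, so part of its reads may come from that gene. 2410003K15Rik had 470, 782 and 577 reads in controls and 1010, 738 and 642 in tumours, more than Igf2bp3 in each library. In CPM this was 12.8, 11.9 and 11.7 in controls and 16.5, 13.25 and 13.9 in tumours. Every tumour lay above every control, but the log2 fold change of 0.27 did not pass (edgeR adjusted p = 0.244). The part of this row in the Igf2bp3 values was not tested.

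**Figure D3:**
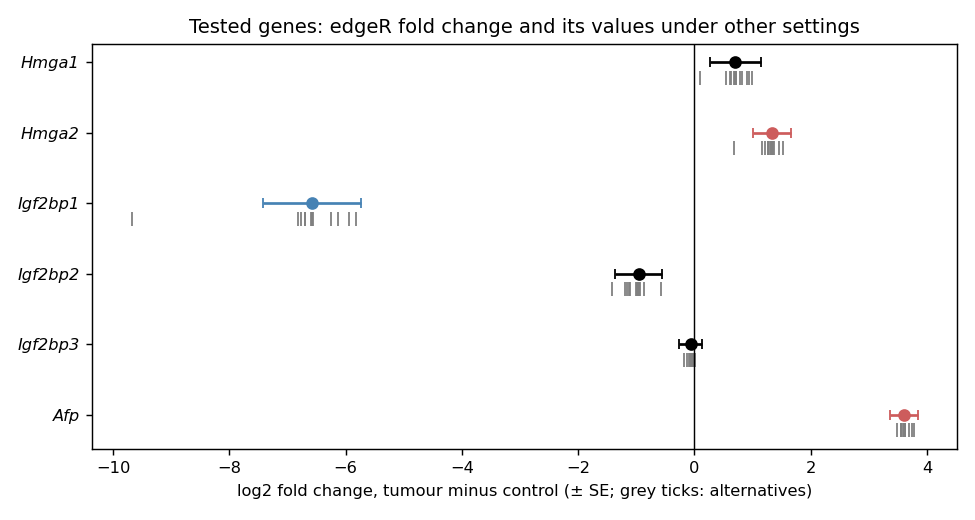
Log2 fold change of tumour minus control (horizontal axis) for the 6 tested genes, as the edgeR value with its SE (points and bars; red higher, blue lower, black not passing) and under each other setting tried (grey ticks). Afp stays between 3.48 and 3.78 and no gene called as changed changes sign.

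Among 9 transcripts known to be bound by IGF2BP proteins, 6 fell and 1 rose, with a median log2 fold change of -2.05. Cd44, an adhesion receptor, rose by 1.29 ± 0.25 (log2, SE; edgeR adjusted p = 0.00379), from 258 ± 74.9 to 631 ± 105 CPM (SD, n = 3 each). H19, the imprinted noncoding RNA beside Igf2, had 28, 125 and 46 reads in controls and 8, 0 and 2 in tumours, and passed as lower (edgeR adjusted p = 0.00382). H19 and Mapk4, another of the 6, passed the filter on low counts only through the control libraries. Both could thus enter the test only by being higher there, and the count of 6 and the median include them. Igf2 itself, the fetal growth factor that gave the family its name, falls outside the rule for named genes and was chosen after its values were seen. Controls had 7.31, 6.30 and 7.29 CPM of Igf2 and tumours 0.490, 1.45 and 1.30 CPM, and Igf2 fell by 2.69 on the log2 scale (SE 0.41, edgeR adjusted p = 0.00113). Actb, the first mRNA found to be localised by an IGF2BP protein, had 1962 ± 94.3 and 1998 ± 494 CPM (SD, n = 3 each).

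Of 13 partners of IGF2BP1 and enzymes or readers of the m6A mark on mRNA, 4 rose and none fell, with a median log2 fold change of 0.36. Ythdf2, an m6A reader that speeds mRNA decay, rose by 0.79 ± 0.15 (log2, SE; edgeR adjusted p = 0.00308). Hnrnpu and Syncrip, RNA-binding proteins found in complexes with IGF2BP1, rose by 0.65 and 0.54 on the log2 scale, and the call of Syncrip was lost without control replicate 2, control replicate 3 or tumour replicate 4 (edgeR adjusted p 0.0798 to 0.0853). None of the 4 passed the test against a 2-fold change, and 7 passed as higher without tumour replicate 1.

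Afp lies at chr5:90919740-90937933 on the plus strand (mm9). Control libraries had 0.815, 0.820 and 1.01 CPM and tumours 10.95, 11.6 and 9.78 CPM. The groups were far apart, and the spread within each was small. From 0.883 ± 0.114 CPM (SD, n = 3) the mean went to 10.8 ± 0.937 CPM (SD, n = 3), a log2 fold change of 3.61 ± 0.24 (SE; edgeR adjusted p = 2.5e-05). It passed under all 16 other settings tried, at 3.48 to 3.78 with adjusted p up to 0.00754.

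The bases before the start of Afp are shown because its known activators bind there. Of 4 sets of letters searched on both strands, GGGCGG is absent from the window of 250 bases before to 50 after the RefSeq start. Counted from that start, the window holds GTTAAT, the half-site of HNF1 factors, at -105, and CCAAT on the minus strand at -98. It also holds TATAAA, the letters of a TATA box, at -7. These do not overlap, and whether TATAAA at -7 serves this start was not tested. In windows of the same length at 32851 starts, 7.1% hold GTTAAT, 13.6% TATAAA and 37.4% CCAAT. The 250 bases before the start are chr5:90490464-90490713 on the plus strand (RefSeq, GRCm38.p6), with GTTAAT and TATAAA in capitals.
Afp: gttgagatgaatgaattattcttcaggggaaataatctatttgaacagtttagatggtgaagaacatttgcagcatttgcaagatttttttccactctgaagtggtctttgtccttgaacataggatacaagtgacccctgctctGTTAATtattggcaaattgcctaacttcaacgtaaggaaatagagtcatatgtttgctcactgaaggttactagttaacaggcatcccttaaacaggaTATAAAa

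Afp sits in a row with its relatives. Alb, the gene of serum albumin, ends 14110 bases before Afp, and Afm, the gene of afamin, starts 10024 bases after it (mm9), with no other name of the table lying wholly between Alb and Afp or between Afp and Afm. Alb rose with Afp, from 0.435, 0.243 and 0.162 CPM in controls to 22.5, 13.3 and 22.7 CPM in tumours, by 6.16 ± 0.42 (log2, SE; edgeR adjusted p = 2.6e-05). Per exon length, Alb was below Afp in control lung (0.137 ± 0.0684 against 0.423 ± 0.0547 RPKM, CPM per kilobase of exon) and above it in tumours (9.55 ± 2.64 against 5.17 ± 0.449 RPKM; SD, n = 3 each). Afm had 0 reads in all controls and 12, 0 and 1 in tumours, and was not tested.

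Markers of liver cells did not move as 1 group. Their summed level was 2.46 to 2.91 CPM in controls and 16.0 to 25.9 CPM in tumours, but 2 of the 4 tested rose and 1 fell. Most of the tumour sum was Alb. Apoa1, an apolipoprotein of liver and gut, was at 0.700 to 0.915 CPM in tumours, and Ttr had 18, 0 and 0 reads. Fgb, a chain of fibrinogen, had none in any library. Serpina1a fell by 2.64 on the log2 scale, or by 3.29 without tumour replicate 4. Apoa1 passed the filter on low counts only through the tumour libraries, and Serpina1a only through the control libraries. Each could thus enter the test only by being higher in that group.

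Among 12 tested genes of the albumin family and known regulators of Afp, 8 rose and 1 fell, with a median log2 fold change of 1.45. Hnf4a, a nuclear receptor of liver and gut, had 0, 1 and 0 reads in controls and 1052, 79 and 65 in tumours, most of them in tumour replicate 1. Hnf4a and Foxa3, another of the 8, passed the filter on low counts only through the tumour libraries. Both could thus enter the test only by being higher there. Zhx2, which represses Afp in adult liver, had 25.8, 28.4 and 31.7 CPM in controls and 22.0, 21.5 and 20.3 CPM in tumours. The groups of Zhx2 did not overlap, at -0.43 ± 0.15 (log2, SE; edgeR adjusted p = 0.0452), and leaving out tumour replicate 1 was the only omission of a library that kept the call (adjusted p = 0.0377, against 0.0580 to 0.157). Zbtb20, a further repressor of Afp in liver, had 671 ± 41.1 and 497 ± 62.7 CPM (SD, n = 3 each) and did not pass (adjusted p = 0.0726).

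Levels of the 8 genes can be compared with each other only per length, and the place of Hmga1 is uncertain because most of its sequence is not unique. The place of Igf2bp3 is uncertain as well, because 35.2% of its exon bases lie inside exons of 2410003K15Rik on the opposite strand. In control lung the order by mean RPKM was Igf2bp3 (1.77), Hmga1 (1.26), Igf2bp2 (0.925), Afp (0.423), Igf2bp1 (0.205), Hmga2 (0.0876), Lin28a (0.0299) and Lin28b (0). Hmga1 and Igf2bp2 overlapped between libraries, and no other neighbours above Lin28b did. In tumours the order was Afp (5.17), Hmga1 (2.04), Igf2bp3 (1.70), Igf2bp2 (0.475), Hmga2 (0.224), Lin28a (0.0205), Igf2bp1 (0.00185) and Lin28b (0). There, Hmga1 overlapped with Igf2bp3, Igf2bp2 with Hmga2, and Lin28a, Igf2bp1 and Lin28b with each other, while Afp lay above all others in every library. Only Afp in tumours exceeded the median of all genes tested, which was 3.80 RPKM in controls and 3.53 RPKM in tumours.

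**Figure D4:**
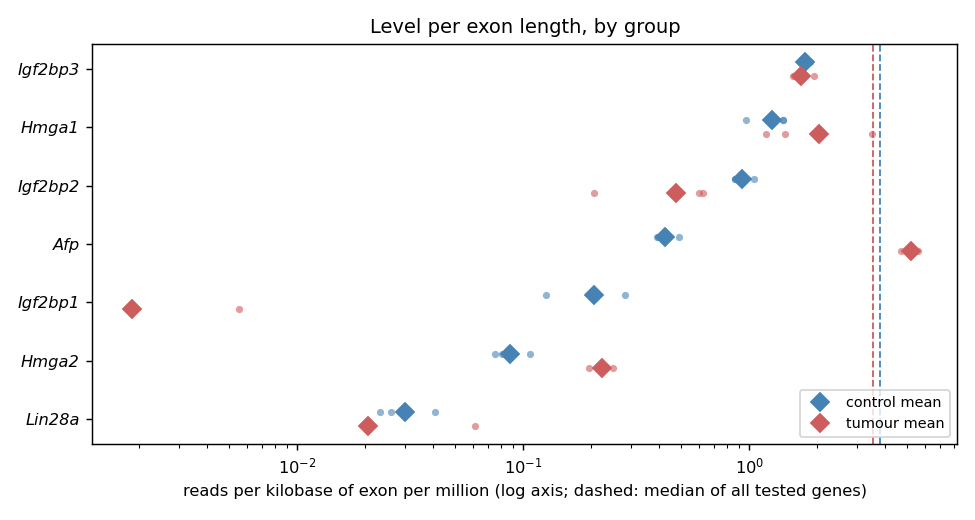
Level per exon length in RPKM (horizontal log axis) of 7 genes, with controls in blue and tumours in red; diamonds are means, small points are libraries above 0, and dashed lines mark the medians of all tested genes. Afp moves from 0.423 to 5.17 RPKM, past the median, and Igf2bp1 from 0.205 to 0.00185 RPKM; Lin28b, at 0 in all libraries, is not drawn.

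Other genes of the embryo and of the lung bud give the setting. Of 11 further oncofetal and pluripotency genes, 6 were tested, and 3 of these rose and 1 fell, with a median log2 fold change of 1.83; 2 were lower when any library but control replicate 2 was left out. Dlk1, a fetal NOTCH ligand, had 0, 44 and 0 reads in controls and 70666, 28485 and 18597 in tumours. Sox2, a factor of the proximal airway, had 145, 192 and 132 reads in controls and 0, 6 and 0 in tumours. Of 9 genes of the distal tip progenitors of the lung bud, 6 rose and none fell, at a median log2 fold change of 1.43. Sox9, the tip factor, went from 0.136, 0.152 and 0.325 CPM to 83.1, 40.4 and 52.1 CPM. Dlk1 and Sox9 passed the filter on low counts only with the tumour libraries, and Sox2 only through the control libraries. Each could thus enter the test only by being higher in that group, and the list counts and medians include them. Gata6, a factor of lung epithelium, rose by 1.12, and Foxp1 had 190 ± 17.2 and 222 ± 26.4 CPM (SD, n = 3 each) without passing. Among 10 proliferation markers 8 rose and none fell (median 1.68), Cdk1 by 3.0 ± 0.62 (log2, SE; edgeR adjusted p = 0.0052) and Ccna2 by 1.24 ± 0.22. Without tumour replicate 1, 5 of the 10 passed and Cdk1 rose by 1.96; 5 also passed without control replicate 2 or control replicate 3.

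**Figure D5:**
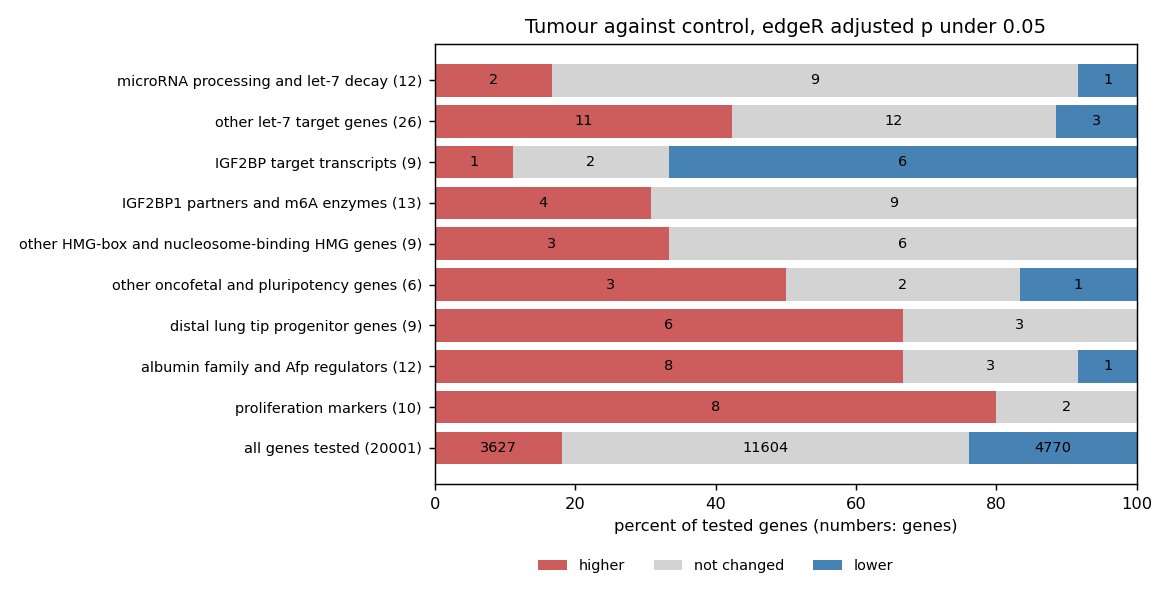
Percent of tested genes (horizontal axis) that were higher (red), not changed (grey) or lower (blue) in tumours, for each gene list and for all 20001 genes tested, with the number of genes written in each bar. The IGF2BP targets have 6 of 9 lower and the proliferation markers 8 of 10 higher. Bars include genes that passed the filter on low counts only through controls or only through tumours.

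The genes most like each member over the 6 libraries were found by Pearson's r of log2 CPM, as a description, since all share the split into tumour and control. For Afp these were Nup214 (0.999), Igsf3 (0.999) and Rgs5 (0.999), and for Hmga2 they were Dennd1b (0.998), Clcn3 (0.998) and Larp4b (0.997). Igf2bp1 was most like Iqsec1 (0.999), Apba1 (0.997) and Lrp1 (0.997), and Igf2bp2 like Dmxl2 (0.998), Slc16a10 (0.997) and Cadm1 (0.996). These are drawn from many: 892 genes reached 0.95 for Afp, 650 for Hmga2, 1014 for Igf2bp1 and 247 for Igf2bp2. Hmga1 and Igf2bp3, the genes that did not separate the groups, had fewer, at 31 and 49. The nearest were Kifc2 (0.990), Clpp (0.981) and Akt1s1 (0.979) for Hmga1, and Rad18 (0.994), Cd2bp2 (0.991) and Crtap (0.990) for Igf2bp3.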

How the data were processed

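RNA of 3 control lung and 3 tumour libraries was sequenced, and the deposited table holds read counts per gene name. Per the file headers, the authors ran featureCounts 1.6.5 on exons of GENCODE M1 (mm9), assigning a read to each name it overlaps, with no strand, pair or multi-mapping option. Per the submitters' processing notes, STAR, limma, edgeR and R 3.6.0 were used, with builds GRCm38 and mm9; the version of STAR is not given in these sources. Here, edgeR 4.0.16 in R 4.3.3 tested the counts (filterByExpr with a minimum count of 10, TMM scaling, quasi-likelihood F test with group as the only term, Benjamini-Hochberg adjustment over 20001 genes, adjusted p under 0.05). The test was first run on simulated data in which far fewer genes changed than were called here, so that run does not stand for these data. SE came from the F statistic, and log2 CPM used a prior count of 2. Depth was 38996532 to 62336537 reads, and limits for 0 reads use 3 counts.

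Named genes are the members, the changed genes with the largest and the smallest log2 fold change and the gene with the largest mean CPM of each list, and the 3 genes most correlated with each tested member among genes whose log2 CPM averaged at least 2. Members and lists were chosen with earlier results of these data known. All 176 list entries matched, 7 of them by an older name. Promoters and microRNAs are from RefSeq (GRCm38.p6; 7 of 8 promoters matched), and 3′ untranslated regions from GENCODE M21, 1 region of at least 20 bases per gene. Alternatives were DESeq2 1.42.0, limma-voom (limma 3.58.1), other scalings, filters and thresholds, a replicate block and each library left out; 1 that handles shared reads was chosen after seeing the data. Some rows are not reported here.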

Additional observations from a re-analysis of the deposited data

How the results depend on the processing

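The direction of Afp, Hmga2 and Igf2bp1 was the same under every setting run, and Afp and Igf2bp1 passed under all 16. Igf2bp1 passed the filters on low counts only through the control libraries, so its direction in those settings is no separate support. With no filter its log2 fold change was -6.57 (edgeR adjusted p = 0.000103). Of 8397 genes changed (3627 higher, 4770 lower), 3965 (1056 and 2909) passed a 2-fold test, and 2073 were higher at an adjusted p under 0.01. Control and tumour share only the replicate numbers 1 and 2, and same-numbered libraries did not deviate together (r = -0.18 and -0.0086). With only 2 such pairs, this cannot settle whether the numbers pair the libraries. With a replicate block, 3641 genes passed (1092 higher, 2549 lower) and Hmga2 did not (1.17, edgeR adjusted p = 0.239). Of the 8 genes, 1 rather than 2 was higher under the 2-fold test, at 0.01, with the replicate block and with the reads of 1700006J14Rik removed, and 2 rather than 1 were lower with total-count scaling, DESeq2 and limma-voom. Total-count scaling moved the median log2 fold change of all genes from 0.01 to -0.10 and the share of higher among called genes from 43.2% to 33.6%. Of 288 recomputed list counts, 237 were within 1.5 times the value reported or were 0 as reported, and 51 were not. The 237 include the lower counts of the distal tip, IGF2BP1 partner, other HMG and proliferation lists, which were 0 in every setting. With the replicate block the IGF2BP targets had 3 rather than 6 lower. The genes higher with this block were 0 rather than 4 of the IGF2BP1 partners and m6A enzymes and 0 rather than 2 of microRNA processing. They were 1 rather than 3 of the other HMG genes and 6 rather than 11 of the let-7 targets. They were also 4 rather than 8 of the albumin family and Afp regulators, and 3 rather than 8 of the proliferation markers. In the replicate block, control replicate 3 and tumour replicate 4 stand alone, so its group difference rests on replicates 1 and 2. The part of this in the changed counts was not tested, nor was any other cause. At this depth the levels of Lin28a and Lin28b limit any comparison of the groups.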
